A study of Mus musculus with 2 samples.

Results

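The cells described here are those that the deposited cell table leaves without a population name, chosen by that label alone. There are 2728 of them among 16401 cells, with 2163 in replicate 1 and 565 in replicate 2. The other cells carry 1 of 13 population names. The unnamed cells made up 18.0% of replicate 1 (exact Clopper-Pearson 95% interval 17.3% to 18.7%) and 12.9% of replicate 2 (11.9% to 14.0%).

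Both samples are primary cultures of the lateral ventricular walls of newborn mice aged P0 to P2, profiled by droplet single-cell RNA sequencing after 2 days without serum, which starts the differentiation of ependymal cells. The C57BL/6N substrain supplied replicate 1 and the C57BL/6J substrain supplied replicate 2, so substrain and library cannot be told apart. The labels name no other condition. Xist, an RNA of female cells, had 0.178, 0.610 and 0.348 CPM in clusters 1, 2 and 3 of the unnamed cells (described below) in replicate 1. In replicate 2 it had 261.1, 282.3 and 250.4 CPM. The sex of the animals may thus differ between the libraries and cannot be told apart from library either. Cells were grown to confluence in coated flasks and shaken before serum was withdrawn, and all cells of a sample share that culture. The labels call the samples duplicates. With a term for library in the fit, p-values measure only how far differences between populations varied between these 2 libraries.

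Ependymal cells carry tufts of motile cilia on the walls of the brain ventricles and move cerebrospinal fluid. Glial-like progenitors leave the cell cycle, switch on regulators such as Gmnc, Mcidas and Foxj1, build many centrioles on structures called deuterosomes, and then extend motile cilia whose core is the axoneme. The deposited names follow that course as progenitors I and II, cycling progenitors, early, mid and late deuterosomal cells, early MCCs and MCCs (multiciliated cells). Neuroblasts, OPCs (oligodendrocyte precursors), oligodendrocytes, microglia and fibroblasts complete them. The names were presumably given from the expression data that are compared here, so differences from a named population are descriptions of where the names were withheld rather than independent evidence.

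The table held 1.74e+08 unique molecular identifiers (UMIs, counted molecules) in replicate 1 and 7.06e+07 in replicate 2, and the unnamed cells gave 29923226 and 8717431 of them. The 2 libraries shared 13 barcode sequences, and 5 unnamed cells carried a shared sequence. Markers of other cell types differed in how far they were detected in the unnamed cells. The 14 microglia genes summed to 76.26 and 50.01 CPM (counts scaled to a common total per sum) in replicates 1 and 2, against 26892 and 28628 CPM in microglia. The neuroblast list summed to 615 and 631 CPM in unnamed cells, against 7815 and 9042 CPM in neuroblasts, and the OPC list to 559 and 582 CPM, against 4214 and 5365 CPM in OPCs. Both sums rested on few genes. In cluster 1 Cd24a (298.6 and 259.1 CPM) and Sox4 (190.8 and 210.9 CPM) gave most of the neuroblast sum. Ptprz1 (426.6 and 472.0 CPM) gave most of the OPC sum there. Dcx had 1.87 and 0.399 CPM in that cluster, Pdgfra 4.89 and 0.399 CPM and Sox10 2.67 and 0 CPM. The mural list, which holds contractile genes, summed to 3790 and 4211 CPM in unnamed cells, between the 4674 and 5127 CPM of progenitors II and the 2682 and 3367 CPM of MCCs. The erythroid and lymphocyte lists summed to less than 1 CPM in unnamed cells of both libraries.

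The unnamed cells were close in depth to their neighbours in the map and shallower than most other stages of the lineage. Their median was 12159 UMIs per cell in replicate 1 and 13508 in replicate 2, against 10184 and 12434 in progenitors II and 13053 and 16747.5 in MCCs. Cycling progenitors (16952 and 20007), early MCCs (16265 and 19910.5), mid deuterosomal cells (17984 and 20436) and late deuterosomal cells (20650 and 22456) were deeper. The median number of genes at an equal depth of 5000 UMIs was 2381 and 2402 in unnamed cells, against 2338 and 2357.5 in progenitors II and 2433 and 2450 in MCCs. The unnamed cells lay between those populations in both libraries by this measure. The median share of mitochondrial UMIs was 4.23% and 5.93% in unnamed cells, against 4.53% and 6.15% in progenitors II and 4.23% and 6.52% in MCCs. Of the unnamed cells 95.7% (94.7% to 96.5%) in replicate 1 and 99.5% (98.5% to 99.9%) in replicate 2 were annotated as G0, the resting class. The G0 share was 99.4% and 99.6% in progenitors II, 99.9% and 100% in MCCs, and 72.7% and 69.1% in early deuterosomal cells.

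In the deposited UMAP, a 2-dimensional map of similarity between cells, the unnamed cells filled the stretch between progenitors II and MCCs. The largest connected body of the map held 1999 of the 2163 unnamed cells of replicate 1 and 559 of the 565 of replicate 2. Among the 15 nearest named cells of the same library, progenitors II took 34.3% and 49.5%, MCCs 38.2% and 25.7%, and early deuterosomal cells 14.8% and 15.6%. In 30 principal components of log expression the same shares were 43.5% and 58.1%, 38.7% and 24.6%, and 6.10% and 7.86%. The lower MCC share of replicate 2 goes with fewer MCCs in that library, 264 against 2047. Of the 15 nearest cells of any label, 76.9% and 76.0% in the map were unnamed too. Positions and components come from the same counts, so these shares describe resemblance only.

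**Figure D1:**
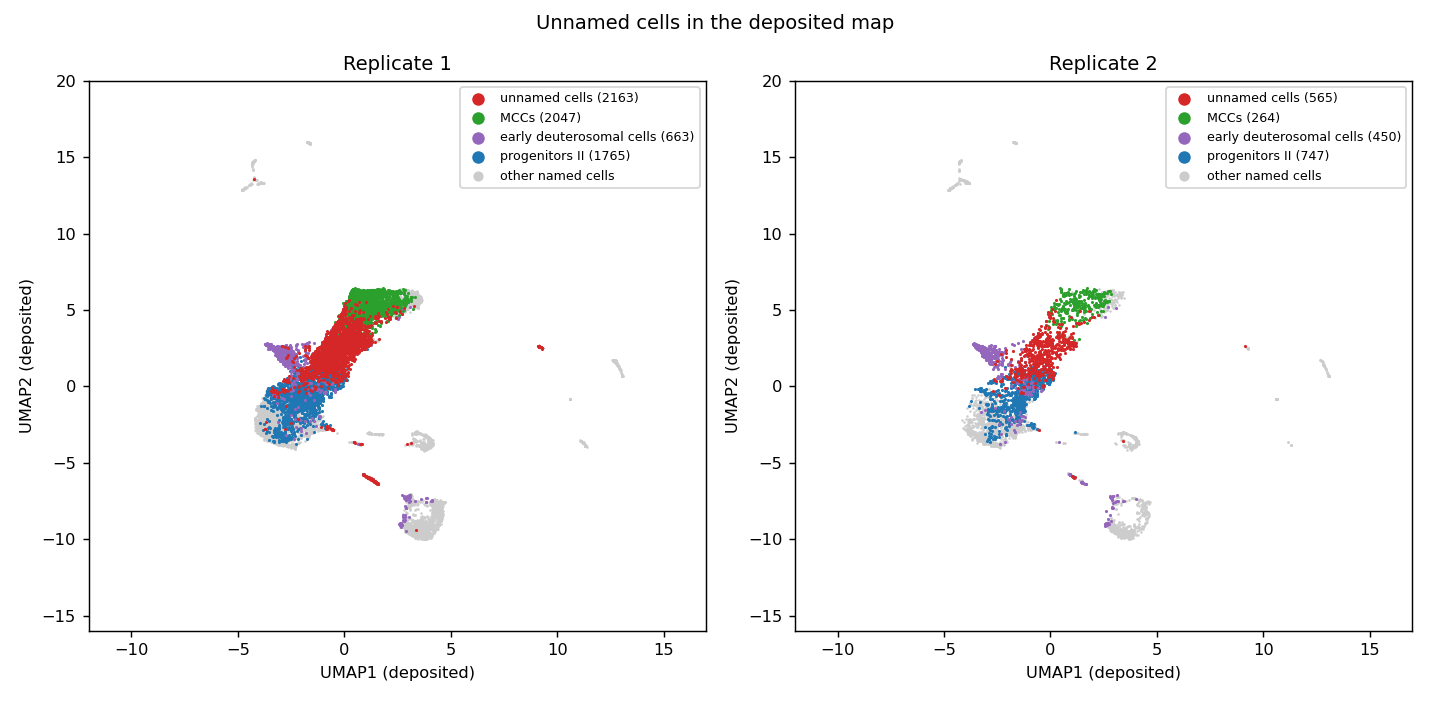
Deposited UMAP coordinates (arbitrary units) of the cells of each library, with 1 point per cell; unnamed cells are red, and progenitors II, early deuterosomal cells and MCCs are coloured for comparison. The red cells bridge the blue and green areas in both panels, and a few small groups lie apart from the main body, nearly all in replicate 1.

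The unnamed cells held intermediate levels of the genes of the ciliary machine. For 57 axoneme genes (dyneins, radial spoke, tektin and related proteins), the median unnamed cell spent 0.731% of its UMIs in replicate 1 and 0.661% in replicate 2. The same share was 0.305% and 0.284% in progenitors II and 1.51% and 1.48% in MCCs. Of the unnamed cells 57.9% (55.8% to 60.0%) and 69.6% (65.6% to 73.3%) fell between the 95th percentile of progenitors II and the 5th percentile of MCCs, a range that by its definition holds few cells of either. With every cell thinned to 5000 UMIs these were 50.3% and 58.3%. Of the unnamed cells of replicate 1, 517 lay at or below that range and 393 at or above it, and of replicate 2, 126 and 46 did. Early deuterosomal cells were the other population with a large share in the range, at 38.01% and 41.11%.

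**Figure D2:**
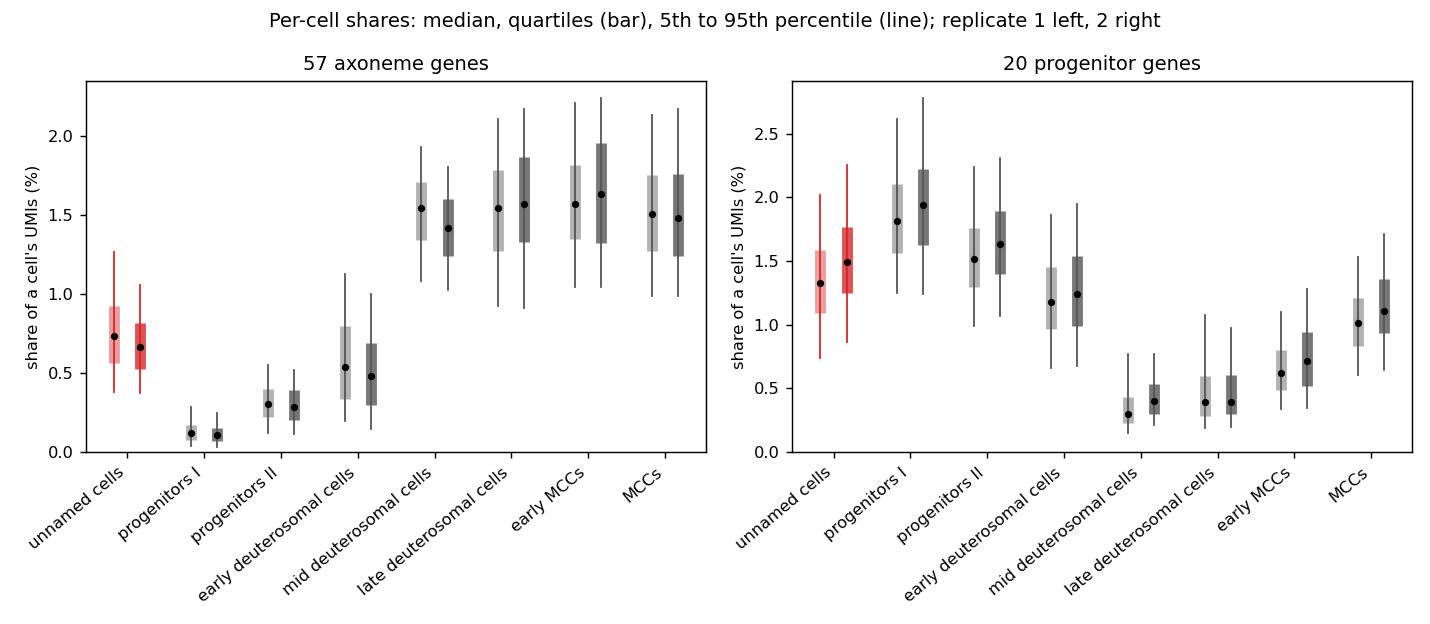
Share of a cell's UMIs (%) from the axoneme list (left panel) and from the progenitor list (right panel), per population and library, with the median as a point, quartiles as a bar and the 5th to 95th percentile as a line. Unnamed cells (red) lie between progenitors II and MCCs on both axes, with axoneme medians of 0.731% and 0.661%. Most counts of the progenitor list in unnamed cells came from Vim.

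Counts were summed per library and population and tested with edgeR's quasi-likelihood test, with library as a block and Benjamini-Hochberg adjusted p under 0.05. Of 15877 genes tested, 2336 (14.7%) differed between unnamed cells and progenitors II, the fewest among the 12 named populations that could be fitted. In unnamed cells 1561 of them (9.83% of genes tested) were higher and 775 (4.88%) lower. Against MCCs 3604 (22.7%) differed, 1583 (9.97%) higher and 2021 (12.7%) lower in unnamed cells. Early deuterosomal cells followed with 4669 (29.4%), then early MCCs with 5511 (34.7%) and progenitors I with 5629 (35.5%). The other fitted populations differed at 44.9% of genes (oligodendrocytes), 45.4% (OPCs), 47.3% (late deuterosomal cells), 47.6% (neuroblasts), 48.5% (cycling progenitors), 54.1% (microglia) and 62.7% (mid deuterosomal cells). These counts depend on how many cells were summed and on the library block. With 34 cells drawn per population and library the counts were 1 against progenitors II, 166 against MCCs, 248 against progenitors I and 310 against early deuterosomal cells, and without the block they were 380 against progenitors II and 662 against MCCs. With median-of-ratios size factors the share of calls that were higher in unnamed cells was 33.0% against MCCs, beside 43.9% with TMM, and 60.3% against early deuterosomal cells, beside 49.6%.

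Read gene by gene, nearly all genes that separated the unnamed cells from both neighbours lay between them. In unnamed cells 1189 genes were higher than in progenitors II and lower than in MCCs, and 547 were lower than in progenitors II and higher than in MCCs, together 1736 genes or 10.9% of those tested. Without the library block 232 genes (1.46%) lay between, and with 34 cells per population 1 did. Both comparisons share the unnamed sums. Only 17 genes were higher than in both, and with edgeR no gene was lower than in both, where 6 genes were at an unadjusted p under 0.05 and DESeq2 also called 0. When the unnamed cells outside the main body of the map were left out, 2 of the 17 genes stayed above both, C3 and Mcidas, and 1697 genes still lay between. The other 15 include mitotic genes such as Aspm, Aurka, Ccnb1, Cdca3, Pbk, Pclaf and Ube2c, named after their values were seen. In replicate 2 Ccnb1 had 4.015 CPM in unnamed cells against 4.591 CPM in MCCs. Cdca3 had 1.95 CPM there against 2.077 CPM in progenitors II. The rest of the genes named here were above both populations in both libraries.

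Cilium genes set the unnamed cells apart from the progenitors. Against progenitors II, 49 of the 57 axoneme genes were higher and 0 lower, with a median log2 fold change of 1.22 beside -0.01 over all genes, of which 9.83% were higher. Against MCCs, 45 of the 57 were lower and 0 higher, with a median of -0.90 beside 0.01 over all genes, of which 12.7% were lower. Of the 57, 44 passed both tests and so lay between. The 18 multiciliated markers had 14 higher than progenitors II, with 10 lower than MCCs and 0 calls the other way in either comparison. Without the library block the axoneme counts were 20 higher than progenitors II and 15 lower than MCCs, and the multiciliated counts 6 and 2. DESeq2 called 35 and 28 axoneme genes. The lists and markers were chosen with earlier results of these data known.

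Ccdc153, which encodes a coiled-coil protein and marks ependymal cells, had 273.7 and 165.6 CPM in unnamed cells of replicates 1 and 2. It had 30.5 and 19.9 CPM in progenitors II and 997.4 and 894.9 CPM in MCCs. The 3 populations did not overlap, and the log2 fold change was 3.10 ± 0.59 (SE) against progenitors II (edgeR adjusted p = 0.003437) and -2.19 ± 0.55 against MCCs (edgeR adjusted p = 0.0116). Ak7, an adenylate kinase of motile cilia, had 162.2 and 169.7 CPM in unnamed cells, against 34.0 and 34.1 CPM in progenitors II and 434.8 and 532.6 CPM in MCCs. Hydin, which builds the central apparatus of the axoneme, had 67.8 and 73.5 CPM in unnamed cells, against 12.7 and 13.7 CPM in progenitors II and 182.8 and 223.7 CPM in MCCs. In all 3 genes both unnamed libraries stood above progenitors II and below MCCs. Without the library block Hydin passed both tests, Ak7 passed only against progenitors II, and Ccdc153 passed neither (edgeR adjusted p = 0.1299 and 0.2422).

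Several axoneme genes that were intermediate in unnamed cells carry a match to an X-box, the site of the RFX factors that act on cilium genes, just upstream of their start. The letters GTNNCC, then any 3 bases, then GNAAC, a loosened X-box searched on both strands in RefSeq promoters (GRCm38.p6, 250 bases before to 50 after each start), were found for 10 of 47 axoneme genes with a promoter (21.3%). They were found for 84 of 903 genes (9.30%) that were above progenitors II and below MCCs, and for 673 of 27025 genes (2.49%) in all. Of 16 progenitor markers with a promoter 0 had this match, and 5 had GTTGCC alone. Other forms were tried as well. With GTTNCC, any 3 bases and GNAAC the shares were 17.0%, 3.88% and 0.936%, with GTTGCC alone they were 36.2%, 27.6% and 14.1%, and with GTTGCC, ATG and GNAAC 0%, 0.111% and 0.0851%. The following stretches show the match in capitals, read 5′ to 3′ on the gene's strand. Spag16 and Ccdc151 match as written, and Hydin and Cfap44 match as the reverse complement of the letters shown.
Hydin, chr8:110266941-110266976 (plus strand): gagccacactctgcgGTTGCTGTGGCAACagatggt
Spag16, chr1:69826852-69826895 (plus strand): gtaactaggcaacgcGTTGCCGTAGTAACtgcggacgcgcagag
Cfap44, chr16:44394757-44394798 (plus strand): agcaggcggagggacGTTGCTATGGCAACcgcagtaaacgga
Ccdc151, chr9:22002640-22002683 (minus strand): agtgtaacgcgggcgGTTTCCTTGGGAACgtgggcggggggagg
A match is a description of the letters in this window and not evidence that a factor binds there.

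Dnah12, an axonemal dynein heavy chain, had 81.2 and 61.8 CPM in unnamed cells, against 15.5 and 8.87 CPM in progenitors II and 207.7 and 182.4 CPM in MCCs. Tmem212, a transmembrane protein of ependymal cells, differed between the libraries. It had 50.2 and 8.95 CPM in unnamed cells, against 2.15 and 0.850 CPM in progenitors II and 430.8 and 230.4 CPM in MCCs. Some abundant cilium genes had the same order without passing. Dynlrb2, a dynein light chain, had 833.9 and 696.0 CPM in unnamed cells, against 341.0 and 279.7 CPM in progenitors II (edgeR adjusted p = 0.1671) and 1537 and 1437 CPM in MCCs (edgeR adjusted p = 0.2468). It passed both tests when cells were thinned to 5000 UMIs, and the groups did not overlap.

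Foxj1, the transcription factor that switches on motile cilium genes, had 460.7 and 570.7 CPM in unnamed cells, against 270.0 and 341.6 CPM in progenitors II and 555.5 and 727.5 CPM in MCCs. Neither difference passed the test (edgeR adjusted p = 0.2917 and 0.6542). Trp73, which encodes the p73 regulator of multiciliation, had 10.9 and 12.0 CPM in unnamed cells, against 2.59 and 2.55 CPM in progenitors II and 23.4 and 26.5 CPM in MCCs. It passed both tests, with log2 fold changes of 2.11 ± 0.22 and -1.12 ± 0.16 (SE; edgeR adjusted p = 1.004e-06 and 1.995e-05).

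**Figure D3:**
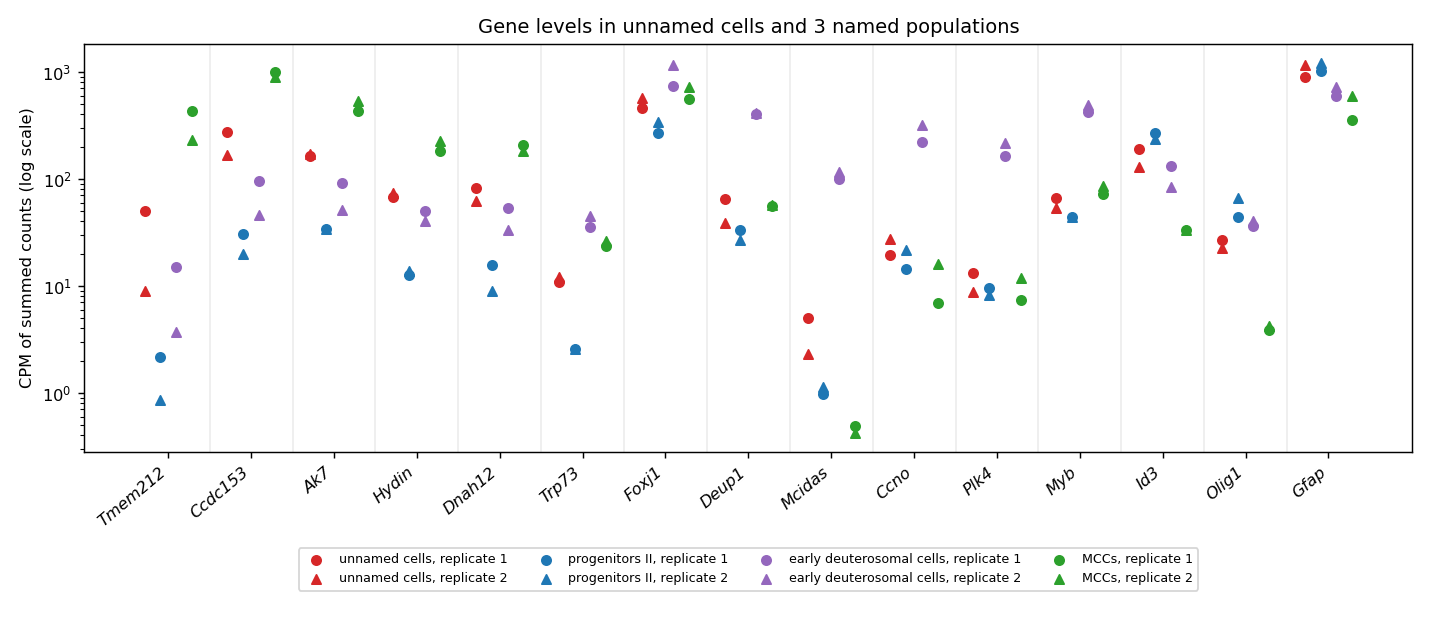
CPM of summed counts on a log scale for 15 genes in unnamed cells, progenitors II, early deuterosomal cells and MCCs, with circles for replicate 1 and triangles for replicate 2. Ciliary genes at the left are intermediate in unnamed cells, with Ccdc153 at 273.7 and 165.6 CPM, while Deup1, Mcidas, Ccno, Plk4 and Myb are several times higher in early deuterosomal cells.

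Genes of the deuterosome stage were far below early deuterosomal cells and above progenitors. The 12 deuterosomal markers summed to 240 and 198 CPM in unnamed cells, against 1469 and 1756 CPM in early deuterosomal cells and 158 and 151 CPM in progenitors II. MCCs had 217 and 236 CPM, below the unnamed cells in replicate 1 and above them in replicate 2. Early MCCs had 263 and 291 CPM. Of the 12, 10 were lower in unnamed cells than in early deuterosomal cells, with a median log2 fold change of -3.44 beside 0.06 over all genes, of which 14.8% were lower. The list of 26 measured centriole amplification genes had 22 lower and 1 higher (Cetn4). Against progenitors II 5 of 12 deuterosomal and 9 of 26 centriole amplification genes were higher and 0 lower, beside 9.83% of all genes. Without the library block these were 2 and 0, and 3 and 7 when only the main body of the map was used. Against early deuterosomal cells 23 of 57 axoneme genes were higher in unnamed cells and 3 lower (Dnah7a, Ccdc151 and Cfap45), beside 14.6% of all genes that were higher. The other 31 axoneme genes did not pass the test. The axoneme counts were 4 higher and 0 lower without the library block, and 12 higher and 1 lower with DESeq2.

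Deup1, the core protein of the deuterosome, had 64.5 and 39.0 CPM in unnamed cells, against 399.3 and 412.6 CPM in early deuterosomal cells. Its log2 fold change was -2.96 ± 0.20 (SE, edgeR adjusted p = 6.04e-09). Mcidas, which starts the multiciliation programme, had 5.01 and 2.29 CPM in unnamed cells, against 99.1 and 115.1 CPM in early deuterosomal cells. It was nonetheless above progenitors II, at 0.977 and 1.13 CPM, and MCCs, at 0.488 and 0.417 CPM. Plk4, the kinase that triggers centriole assembly, had 13.3 and 8.72 CPM in unnamed cells, against 164.8 and 214.0 CPM in early deuterosomal cells. Ccno, a cyclin needed for mass centriole production, had 19.6 and 27.3 CPM in unnamed cells, against 221.8 and 318.0 CPM in early deuterosomal cells. All 4 fell outside the range of early deuterosomal cells in both libraries.

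Gmnc, an early regulator of multiciliation, was the deuterosomal marker that was higher in unnamed cells. It had 49.8 and 48.4 CPM in unnamed cells, against 29.6 and 27.8 CPM in early deuterosomal cells and 36.0 and 24.6 CPM in MCCs. The log2 fold change was 0.77 against early deuterosomal cells (edgeR adjusted p = 0.000183) and 0.64 against MCCs (edgeR adjusted p = 0.001097). Progenitors II had 47.5 and 40.6 CPM, both below the unnamed cells, and the difference did not pass the test (edgeR adjusted p = 0.5621).

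Progenitor markers in sum lay between the neighbours as well. The 20 progenitor markers summed to 13608 and 15211 CPM in unnamed cells, against 15493 and 16695 CPM in progenitors II and 10523 and 11443 CPM in MCCs. Most of the sum in unnamed cells came from Vim. In cluster 1 (described below) Vim had 8256 and 9078 CPM, where the whole list summed to 14877 and 15924 CPM. The sum therefore says little about the other markers. Against progenitors II 1 of the 20 was lower (Ntsr2) and 0 higher, and against MCCs 4 were higher (Id3, Id1, Pax6 and Ntsr2) and 0 lower. Over all genes 4.88% were lower than in progenitors II and 9.97% higher than in MCCs, so the 1 of 20 is near the background, and the 4 were 2 without the library block. Id3, an inhibitor of basic helix-loop-helix factors, had 190.4 and 128.0 CPM in unnamed cells, against 33.0 and 33.0 CPM in MCCs, a log2 fold change of 2.31 ± 0.32 (SE, edgeR adjusted p = 0.0001824). Progenitors II had 270.1 and 236.2 CPM of Id3 and progenitors I 988.2 and 815.0 CPM, and the difference from progenitors II did not pass (edgeR adjusted p = 0.1177). Gfap, the glial filament gene, had 897.9 and 1150 CPM in unnamed cells, against 1011 and 1221 CPM in progenitors II and 354.5 and 590.4 CPM in MCCs, with no call in either comparison.

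Against the mean of progenitors I and II, 5055 genes (31.8%) differed, 2978 (18.8%) higher and 2077 (13.1%) lower in unnamed cells. The largest increases were in Tmem212 (log2 4.39), Nme9 (4.05), Ccdc153 (4.00), Efcab10 (3.72), Hydin (3.63) and Dnah12 (3.58), so cilium genes led them. Nme9, a thioredoxin-domain protein of cilia, had 31.9 and 16.2 CPM in unnamed cells, against 1.18 and 0.784 CPM in progenitors I and 2.35 and 1.70 CPM in progenitors II. The largest decreases were in Elobl (log2 -1.85), Olig1 (-1.79), Id3 (-1.66), Igfbp3 (-1.60), Meg3 (-1.44) and Ccnd1 (-1.42). Olig1, a glial lineage factor, had 26.7 and 22.7 CPM in unnamed cells, against 112.2 and 160.3 CPM in progenitors I and 44.2 and 66.1 CPM in progenitors II. Igfbp3, an insulin-like growth factor binding protein, had 34.9 and 35.5 CPM in unnamed cells, against 129.8 and 154.8 CPM in progenitors I and 72.9 and 80.9 CPM in progenitors II. With 34 cells drawn per population Elobl and Ccnd1 changed sign, at log2 0.19 and 0.25.

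Against the mean of the 5 named stages from early deuterosomal cells to MCCs, 7761 genes (48.9%) differed, 3946 (24.9%) higher and 3815 (24.0%) lower in unnamed cells. Id3 (log2 2.39), Cxcl10 (2.34), Igfbp5 (2.33), Ccn2 (2.20) and Timp3 (2.08) were among the largest increases, and 13 of 20 progenitor markers were higher and 0 lower. Cxcl10 encodes a chemokine, Igfbp5 and Timp3 encode secreted regulators of growth factors and proteases, and Ccn2 encodes a matrix protein. Crip3 (log2 -3.32), Slc17a8 (-3.20), Ccdc192 (-3.17) and Cdc20 (-2.96) were among the largest decreases. Cdc20, the activator of the anaphase ubiquitin ligase, had 7.82 and 3.21 CPM in unnamed cells, against 297.6 and 307.3 CPM in mid deuterosomal cells and 4.69 and 4.59 CPM in MCCs. Cycling progenitors differed at 7698 genes (48.5%), with 26.7% higher and 21.7% lower, and all 14 cycling markers were lower in unnamed cells. Mki67, the proliferation marker, had 7.09 and 3.21 CPM in unnamed cells, with a log2 fold change of -6.58 ± 0.42 (SE, edgeR adjusted p = 2.812e-08).

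Along the map the summed lists of the unnamed cells of the main body changed from bin to bin. Cells were split by their second map coordinate into 5 bins, from below 1 to above 4. The lowest bin takes in cells of cluster 6 (described below), whose median second coordinate was -2.76 and axoneme sum 901 CPM in replicate 1. In replicate 1 the axoneme list summed to 4564, 5554, 7366, 9075 and 11430 CPM from the lowest to the highest bin, and in replicate 2 to 4797, 5549, 7444, 8792 and 11033 CPM. The progenitor list summed to 15027 CPM in the lowest and 12145 CPM in the highest bin of replicate 1, and to 16459 and 13065 CPM in replicate 2. The deuterosomal list stayed between 165 and 234 CPM in every bin of both libraries, with no bin near the 1469 and 1756 CPM of early deuterosomal cells. Each value is a sum over the cells of a bin. A gradual change within cells and a changing mixture of low and high cells therefore cannot be told apart. The bins were cut from the map, which was made from these genes, so no test was made.

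Single genes followed the same course. Ccdc153 had 72.5, 112.5, 245.5, 395.3 and 489.8 CPM over the bins of replicate 1 and 52.8, 71.5, 169.5, 320.7 and 452.4 CPM over those of replicate 2. Id3 had 295.1, 235.1, 180.3, 169.0 and 79.9 CPM over the bins of replicate 1 and 242.4, 117.9, 119.5, 83.8 and 41.3 CPM over those of replicate 2. Ccdc153 was higher in each next bin of both libraries, and Id3 was lower in each next bin except between the second and the third of replicate 2.

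**Figure D4:**
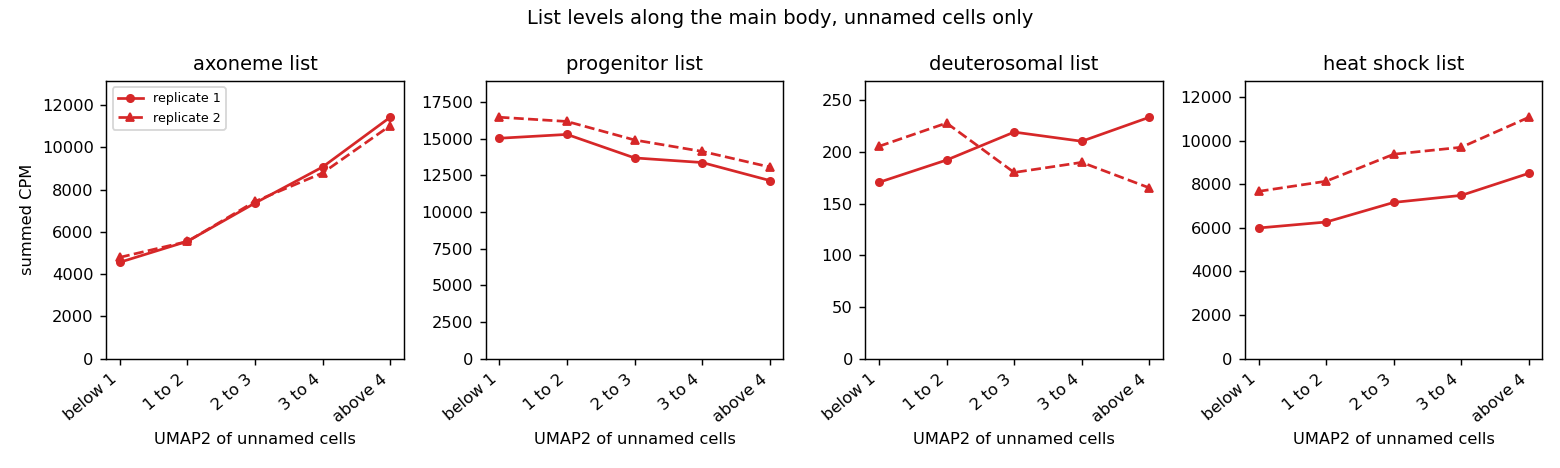
Summed CPM of 4 gene lists in unnamed cells of the main body, in 5 bins of the second UMAP coordinate, with a line per library. The axoneme list climbs to 11430 and 11033 CPM, the progenitor list is lower in the highest than in the lowest bin, the heat shock list climbs and the deuterosomal list stays between 165 and 234 CPM.

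The sums could also be written as blends of the named populations. By non-negative least squares on linear CPM, MCCs took 48.8%, progenitors II 26.8% and progenitors I 16.4% of replicate 1, and progenitors II took 62.1% and MCCs 37.7% of replicate 2, with R2 of 0.996 and 0.994. With each gene divided by its highest population value, progenitors II took 49.3% and 54.2% and MCCs 39.1% and 30.5%. A blend of sums does not tell intermediate cells from a mixture of end states. Cells of intermediate axoneme share and droplets with a cell of each end population cannot be told apart by that share either, and doublets were not tested.

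Cells that hold markers of 2 types were counted for several pairs of lists. With cells thinned to 5000 UMIs, at least 3 multiciliated and 3 microglia markers were found in 0.443% of unnamed cells in replicate 1 and in 0 of 552 in replicate 2, which allows a share of up to 0.543%. The same pair was found in 29.6% and 5.13% of cells named microglia and in 0.298% of MCCs in replicate 1. Multiciliated with neuroblast markers were found in 21.4% and 25.4% of unnamed cells, against 18.3% and 18.0% of MCCs and 17.0% and 16.8% of progenitors II, so this pair was found widely in all 3. Multiciliated with progenitor markers were found in 99.5% and 99.5% of unnamed cells, and also in 100% and 100% of MCCs and 91.1% and 84.2% of progenitors II. The sources used here do not say how doublets (2 cells in 1 droplet) were handled, and none were removed.

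Genes that respond to stress did not peak in the unnamed cells. Among the 13 fitted populations, the heat shock list of the unnamed cells ranked 9th and 7th, the apoptosis list 9th and 9th, the p53 target list 5th and 4th and the immediate early list 3rd and 4th in replicates 1 and 2. Heat shock genes summed to 6956 and 8927 CPM in unnamed cells, against 5632 and 7276 CPM in progenitors II and 8719 and 10955 CPM in MCCs. The list also differed widely among named stages. It summed to 4936 and 6389 CPM in progenitors I, 17992 and 23718 CPM in mid and 15140 and 21819 CPM in late deuterosomal cells. Its rank therefore depends on lineage stage as well, and stress was not told apart from stage. Immediate early genes, which respond within minutes to handling, summed to 1721 and 3965 CPM in unnamed cells, against 1845 and 4067 CPM in progenitors II and 1499 and 4050 CPM in MCCs. The libraries differed more than these populations did. The list of nuclear retained RNAs, which bears on RNA quality, summed to 10035 and 11972 CPM in unnamed cells, against 15467 and 15161 CPM in progenitors II and 8570 and 7607 CPM in MCCs, and its part in these results was not tested. Against progenitors II no immediate early gene of 20 differed, beside 14.7% of all genes, and 1 of 20 was higher than in MCCs, beside 9.97%. Against the mean of the 5 named multiciliated stages 18 of the 20 were higher, beside 24.9% of all genes, and 3 were without the library block.

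Several stress genes lay between progenitors II and MCCs. Hsp90aa1, a cytosolic chaperone, had 1929 and 2631 CPM in unnamed cells, against 1186 and 1636 CPM in progenitors II and 3045 and 4386 CPM in MCCs, and passed both tests. In all, 4 of 13 heat shock genes were higher than in progenitors II, the same number was lower than in MCCs, and 1 (Bag3) was higher than in MCCs. Over all genes 9.83% were higher than in progenitors II, 12.7% lower than in MCCs and 9.97% higher than in MCCs. Of 14 p53 target genes 6 were lower and 1 higher than in progenitors II, and 5 were higher and 1 lower than in MCCs, beside 4.88% of all genes lower than in progenitors II and 9.97% higher than in MCCs. The 6 were 3 with median-of-ratios size factors, 1 with DESeq2 and 0 without the library block, where the 5 were 2. The heat shock calls were 0 in both comparisons without the block. Cdkn1a, the cell cycle inhibitor p21, had 154.6 and 139.7 CPM in unnamed cells, against 259.5 and 210.4 CPM in progenitors II and 43.5 and 50.9 CPM in MCCs. With 34 cells drawn per population the sign against progenitors II turned for Cdkn1a, at log2 0.40. Bax, a mediator of apoptosis, had 312.5 and 270.4 CPM in unnamed cells, against 440.2 and 365.8 CPM in progenitors II and 172.6 and 157.1 CPM in MCCs.

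A single gene was higher in unnamed cells than in each of the 12 fitted populations, and none was lower than in each. It was C3, the complement component, with 30.04 and 19.4 CPM in unnamed cells, against 19.1 and 12.4 CPM in progenitors II and 13.8 and 20.2 CPM in MCCs. MCCs of replicate 2 were above the unnamed cells of the same library, and the difference from MCCs in replicate 2 alone was -0.06 on the log2 scale. The call against every population was lost with DESeq2, without the low count filter, without the library block, with thinned cells and with equal cell numbers. No gene was lower than in each even at an unadjusted p under 0.05, by edgeR or DESeq2.

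Clustering the unnamed cells alone gave 6 clusters, of which 3 held at least 171 cells in each library and lay at least 98.2% on the main body. Cluster 1 (770 and 171 cells) was led by Id3, S100b and Tmem212, cluster 2 (681 and 218 cells) by Myb, Cdkn1a and Gmnc, and cluster 3 (539 and 173 cells) by the contractile genes Tpm2, Tagln and Acta2 beside Six3 and Igfbp2. Their axoneme sums were alike, at 7478 and 7132 CPM in cluster 1, 7674 and 6701 CPM in cluster 2 and 7345 and 7029 CPM in cluster 3. Gmnc had 76.0 and 76.0 CPM in cluster 2, 41.2 and 40.3 CPM in cluster 1 and 39.4 and 30.3 CPM in cluster 3. The deuterosomal list was highest of the 3 in cluster 2, at 333 and 321 CPM. Malat1, a nuclear long noncoding RNA, had 15180 and 15660 CPM in cluster 2, where the median depth was lowest of the 3 at 10254 and 11816 UMIs. Clusters are made from these genes, so the values describe them and carry no test.

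**Figure D5:**
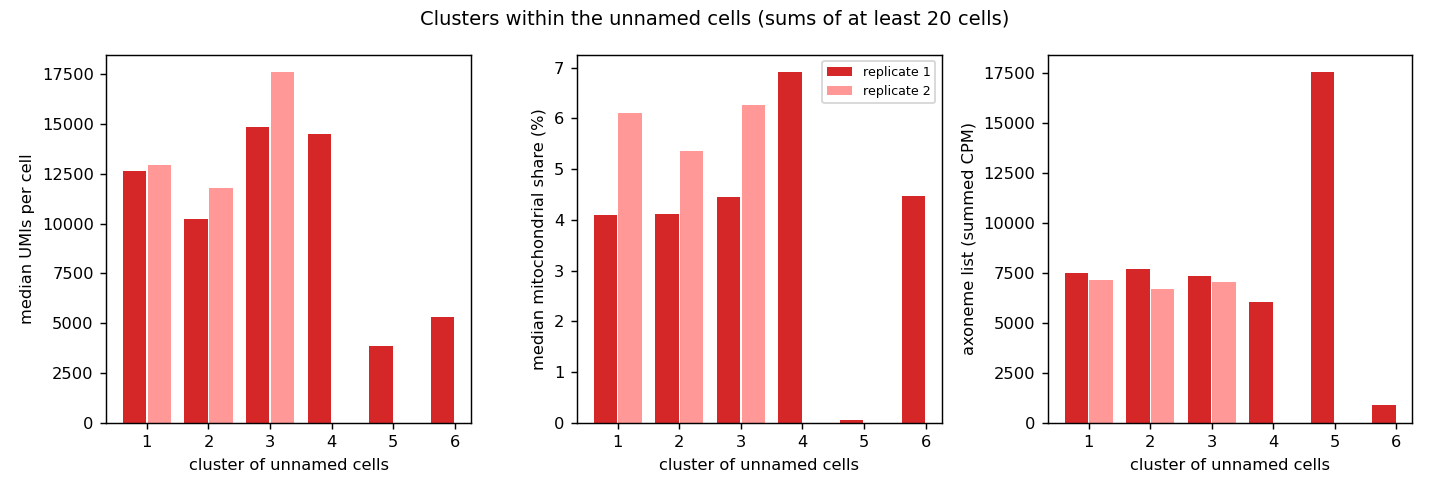
Median UMIs per cell, median mitochondrial share (%) and summed axoneme CPM by cluster of unnamed cells, for sums of at least 20 cells, with a bar per library. Clusters 1 to 3 have bars in both libraries, cluster 4 has the highest mitochondrial share (6.91%), and cluster 5 has 3847 UMIs, almost no mitochondrial UMIs and the highest axoneme sum.

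The other 3 clusters held 173 cells of replicate 1 and 3 of replicate 2, so a cluster and a library cannot be told apart there. Cluster 4 (100 cells of replicate 1) was led by proliferation genes such as Ckap2l, Pclaf and Mki67, had a median mitochondrial share of 6.91% and had 8% of its cells on the main body. Its cycling list summed to 1049 CPM and its deuterosomal list to 796 CPM, yet 75 of the 100 cells were annotated as G0. Most of it lay on a separate island of the map, where 94 of 101 cells of replicate 1 were unnamed but only 4 of 56 cells of replicate 2. In replicate 2 that island carried 21 early deuterosomal, 9 progenitor I, 8 cycling progenitor, 7 progenitor II, 4 mid deuterosomal and 3 early MCC names. The axoneme list summed to 6011 CPM in the unnamed cells of the island in replicate 1, and to 6675 CPM in its early deuterosomal cells in replicate 2. Between these 2 groups the deuterosomal list differed, at 736 and 1208 CPM, as did the heat shock list, at 4559 and 8700 CPM. Other names of replicate 2 had axoneme sums from 1348 CPM (progenitors I) to 11193 CPM (mid deuterosomal cells). The named cells of the island in replicate 1 were 4 progenitors II (3219 CPM) and 3 OPCs (8720 CPM).

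Cluster 5 (53 cells of replicate 1) was the shallowest, with a median of 3847 UMIs and a median mitochondrial share of 0.0567%. Its cells had 181.5 CPM of mt-Co1, a mitochondrial respiratory gene, against 9538 CPM in cluster 1 of the same library, and 445.6 CPM of Malat1 against 6966 CPM. Ccdc192, Crip3, Plk1 and Cdc20 were among its leading genes, its axoneme list summed to 17537 CPM and Deup1 reached 495.1 CPM. None of the 53 cells was annotated as G0, with 16 in G1, 4 in S, 24 in S/G2 and 9 in G2/M. The named cells nearest to it in the map were all microglia, while its microglia list summed to 12.4 CPM. The island that holds it was unnamed in 54 of 54 cells of replicate 1 and in 1 of 9 of replicate 2, where the other cells were 5 mid deuterosomal, 2 late deuterosomal and 1 early MCC. Those named cells had axoneme sums of 15547, 18744 and 18627 CPM and median mitochondrial shares of 0.0400%, 0.426% and 0.0510% in that order. Cluster 6 (20 cells of replicate 1 and 1 of replicate 2) was led, over both libraries together, by Ccl2, a chemokine, Mgp and Insm1. Ccl2 had 859.9 CPM in replicate 1 and 0 CPM in the single cell of replicate 2. Mgp had 0 CPM in replicate 1 and 1194 CPM in that single cell, and Insm1 had 264.6 and 398.1 CPM. In replicate 1 the nearest named cells of cluster 6 were progenitors I in 70.7% of cases, and its axoneme list summed to 901 CPM.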

How the data were processed

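Single cells of 2 cultures were profiled, 1 library each, with the 10x Genomics 3′ v3 kit, per the labels. The deposited table holds whole UMI counts for each gene in each cell. The submitters' processing notes name Cell Ranger 3 and 5.0.1 and the build mm10, without saying which release served which library. The sources used here do not state how names were given or how doublets were handled. The deposited map coordinates are a score in arbitrary units, and the authors' population names and cell cycle classes were used unchanged. The shallowest cells held 2523 and 2502 UMIs, so a filter preceded deposit, and none was added. The highest mitochondrial shares were 9.00% in replicate 1 and 9.99% in replicate 2. Cells with higher shares may have been left out before deposit, which limits what the mitochondrial shares can show about stressed cells.

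For each library and population with 20 or more cells in both libraries, counts were added up, giving 26 sums of 13 populations (fibroblasts had too few). The sums were fitted in edgeR 4.0.16 under R 4.3.3. Settings were TMM factors from 0.739 to 1.20, the tool's own filter on low counts (15877 genes kept), a term for library, and robust quasi-likelihood tests on 12 residual degrees of freedom. The spread of each gene was estimated over all populations together. Fold changes are unnamed over named cells, tests are two-sided, and p-values carry Benjamini-Hochberg adjustment with a threshold of 0.05. DESeq2 1.42.0 served as an alternative, and the fit was tested on simulated data.

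Populations of a library share its culture and substrain, which is why library is a block. Within a library, the median correlation of their deviations from population means was 0.184 (lowest -0.00168). Between unnamed cells and the others the median was 0.404.

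Thinning to 5000 UMIs dropped 607 shallower cells, 143 of them unnamed. Intervals are exact Clopper-Pearson 95% intervals (scipy 1.17.1), the floor for a 0 is 3 counts, and both describe counting error only. Clusters came from leidenalg 0.10.2 at resolution 0.5 (2000 variable genes, 30 components, 15 neighbours). Cells of the map closer than 0.5 units were joined into bodies.

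The members, the 31 gene lists and the tests were chosen with earlier results of these data known. The text could name the top 8 genes by size of change in either direction against non-cycling progenitors, the multiciliated lineage and cycling progenitors. Not all of them are named. These genes needed a mean log2 CPM of 5 or more and 1 direction across libraries, and predicted, mitochondrial and ribosomal protein genes could not enter. Up to 2 members each way per list, the 10 leading genes per cluster, genes called against every population and cell type markers could be named too. Other genes were named after their values were seen. Alternatives varied the size factors, tool, filter, block, depth, cell number and libraries.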

Additional observations from a re-analysis of the deposited data

How the results depend on the processing

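Leaving out a library leaves no residual degrees of freedom, so the gene counts have no value then. Without the replicate block the counts were 380 (progenitors II), 662 (MCCs), 1674 (early deuterosomal cells), 2007 (early MCCs), 2156 (progenitors I), 4351 (late deuterosomal cells), 4523 (cycling progenitors), 1738 (non-cycling progenitors) and 3998 (multiciliated lineage), with 232 genes between progenitors II and MCCs and 4 above both. With 34 cells per population and library they were 1, 166, 310, 566, 248, 1913 and 1570 in the same order of named populations, 215 and 1336 for the 2 means, 3073 (mid deuterosomal cells), 3525 (neuroblasts), 3922 (microglia), 4401 (OPCs) and 4477 (oligodendrocytes), with 1 gene between and 0 above both. DESeq2 called 7 genes above both and the main body alone 2, an alternative chosen after seeing the data. The count below both and the count lower than each population were 0 under every alternative run, and the count higher than each population was 0 with DESeq2, without the filter, without the block and with equal cells. Thinned cells gave 1 such gene, Papss2 in place of C3. In the median of all genes, median-of-ratios size factors moved the comparison with mid deuterosomal cells by 0.11, neuroblasts by -0.11 and oligodendrocytes by -0.16 on the log2 scale. Directions turned with equal cells for Id3 (0.028), Id1 (0.26), Gmnc (-0.041) and Cdkn1a (0.40) against progenitors II and for Elobl (0.19) and Ccnd1 (0.25) against non-cycling progenitors. Leaving out a library gave -0.53 to 0.20 for Deup1 and -0.061 to 1.10 for C3 against MCCs. The cause was not tested, beyond the fewer cells summed. Averaged over the libraries, thinning gave 966 CPM for p53 targets (1001 unthinned) and 766 CPM for the apoptosis list (787), and 54.3% of unnamed cells in the axoneme range (63.7%), the last chosen after seeing the data. The scaled blend gave MCCs 34.8% (43.2%). Asking for 2 genes of each list gave 1.70% for microglia (0.221%), 7.25% for cycling (1.90%), 60.3% for neuroblast (23.4%) and 99.8% for progenitor markers (99.5%), and 4 genes gave 4.39% for neuroblast and 98.8% for progenitor markers. Resolution 1.0 gave 11 clusters in place of 6, and 0.3 gave 4. The small clusters rest on few cells, nearly all of 1 library.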
